A study of Mus musculus with 12 samples.

Results

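The respiratory chain and ATP synthase genes described here were the genes of mouse nuclear DNA whose array symbol starts with Nduf, Uqcr, Cox4, Cox5, Cox6, Cox7, Cox8 or Atp5, or is Sdha, Sdhb, Sdhc or Sdhd. They were chosen by symbol alone, from probe sets with 1 gene symbol in the platform annotation, and Atp5o, which lies in the trisomic segment, was left out. The rule found 86 genes on 146 of the 28898 probe sets with 1 symbol. Of these, 83 passed the filter on dim signal, among 12560 genes tested. By complex, 40 belonged to complex I, 4 to complex II, 7 to complex III, 19 to complex IV and 16 to complex V. Ndufa4 and Ndufa4l2, which carry complex I names but encode complex IV proteins, were placed with complex IV. The complex I genes comprised 6 core subunits, 26 accessory subunits, 7 assembly factors of the Ndufaf series and the pseudogene Ndufs5-ps, whose probe set may also read its parent gene. Cox7b, Ndufa13, Ndufaf7, Ndufb1, Ndufb6, Ndufs5, Uqcrh and the subunits encoded by mitochondrial DNA were not analysed here.

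The study profiled 12 arrays, 3 in each of 4 groups. B6 arrays held RNA of hematopoietic cells with a wild type genotype. Ts1Cje arrays held RNA of hematopoietic cells of Ts1Cje mice, a Down syndrome model in which part of chromosome 16 is present in an additional copy. B6 Trib1 and Ts1Cje Trib1 arrays held RNA of acute myeloid leukaemia (AML) lines that express Trib1, a pseudokinase, on each background; the background of a line is given by its title alone. Titles of the lines add the letters WT, which the labels do not explain. All 4 groups grew in IMDM medium to which 10% FBS and IL-3 at 5 ng/ml had been added. The labels name neither the organ, age or sort of the hematopoietic cells nor the way Trib1 was introduced. They also do not say whether the 3 arrays of a group came from separate mice, lines or cultures. The p-values below therefore measure the spread between arrays, which may be technical. Trib1 expression and leukaemia coincide in the lines and cannot be told apart.

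The respiratory chain sits in the inner mitochondrial membrane. Complex I (NADH dehydrogenase) and complex II (succinate dehydrogenase) pass electrons to ubiquinone, complex III passes them to cytochrome c, and complex IV (cytochrome c oxidase) passes them to oxygen. Complexes I, III and IV pump protons, and complex V, the ATP synthase, uses the proton gradient to make ATP. In blood cells the chain is most studied for the switch from glycolysis to respiration as stem cells differentiate, and for the reliance of many AML cells on respiration.

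Promoters of these genes are known for short elements that bind NRF1, YY1, GABPA and CREB, so the reference promoters were searched for the letters GCATGCGC (NRF1), AAGATGGC (YY1), CCGGAAGT (the ETS element of GABPA) and TGACGTCA (CRE) on both strands. The NRF1 letters overlap themselves on the opposite strand where they are preceded by GC. RefSeq promoters of GRCm38.p6, which run from 250 bases before to 50 bases after a start, were found for 69 of the 86 genes. NRF1 letters were in 12 of the 69 (17.4%), against 5.41% of 10087 genes tested with a promoter and 3.05% of all 27025. YY1 letters were in 11 of the 69 (15.9%), against 4.98% of genes tested and 3.19% of all. The ETS element was in 4 (5.80%, against 8.25% and 4.31%) and the CRE in 4 (5.80%, against 3.33% and 2.03%). The 120 bases before the start are shown for 5 holders of the NRF1 letters that moved in different ways, and for Cox6b2, the member with the largest rise, whose window held none of the 4 motifs. Capitals mark the NRF1 letters on either strand. The windows are chr4:24897963-24898082 (plus strand) for Ndufaf4, chr4:140961151-140961270 (plus) for Sdhb, chr17:56717642-56717761 (plus) for Ndufa11, chr5:108434400-108434519 (minus) for Atp5k, chr15:102671048-102671167 (minus) for Atp5g2 and chr7:4753095-4753214 (minus) for Cox6b2.
Ndufaf4: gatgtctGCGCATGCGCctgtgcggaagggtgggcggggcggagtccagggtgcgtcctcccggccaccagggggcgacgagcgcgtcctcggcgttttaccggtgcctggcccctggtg
Sdhb: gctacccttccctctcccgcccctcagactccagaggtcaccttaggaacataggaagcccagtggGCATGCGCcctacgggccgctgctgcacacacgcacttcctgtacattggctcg
Ndufa11: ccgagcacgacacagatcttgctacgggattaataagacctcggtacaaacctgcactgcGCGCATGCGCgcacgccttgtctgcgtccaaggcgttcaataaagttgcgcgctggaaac
Atp5k: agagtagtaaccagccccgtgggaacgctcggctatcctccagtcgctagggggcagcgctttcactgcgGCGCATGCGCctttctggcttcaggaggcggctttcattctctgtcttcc
Atp5g2: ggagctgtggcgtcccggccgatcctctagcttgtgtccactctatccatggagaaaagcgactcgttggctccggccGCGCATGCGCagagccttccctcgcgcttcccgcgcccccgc
Cox6b2: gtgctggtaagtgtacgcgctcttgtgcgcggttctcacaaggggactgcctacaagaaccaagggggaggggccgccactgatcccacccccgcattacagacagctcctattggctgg
The 5 holders shown were picked for moving in different ways, so their opposite directions follow from the choice. Among them, Atp5k fell and Atp5g2 rose in the lines of both backgrounds. The part of the letters in these differences was not tested. Of the 12 holders of NRF1 letters, 3 rose and 5 fell in the B6 lines (34.1% and 31.1% of all genes tested), and 2 rose and 5 fell in the Ts1Cje lines (34.1% and 26.8%).

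Signal was reported as intensity in arbitrary units, and intensities were compared between groups within a gene, never between genes. Array medians lay between 30.5 and 32.0, maxima between 8041 and 8685, and correlations across genes were 0.997 to 0.999 within a group and 0.915 to 0.993 between groups. Mean intensities of the 83 genes ran from 22.2 to 5144, and 73 of them reached at least 500. Cox7a1, Cox7b2 and Cox8b, isoforms known from muscle or testis, did not pass the filter and lay near the background in every group. Pan-haematopoietic markers (Ptprc, Vav1, Laptm5, Coro1a, Cd53 and Lcp1) passed the filter, with array sums from 13774 to 16152; 3 of the 6 fell in each comparison of lines with cells. Of the 6 stromal markers, Col1a1, Col1a2 and Col3a1 stayed below the filter, while Sparc, Bgn and Dcn passed it. The stromal sum was 489.7 to 528 on B6 arrays, 261 to 299 on Ts1Cje arrays and 117 to 126 on line arrays, and 2 of the 3 fell in Ts1Cje against B6 and in both lines; their part in the results below was not tested.

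In 58 of the 83 genes the highest group mean was under 1.2 times the lowest. In 4 it exceeded 1.5 times: Cox6a2 (4.98 times), Cox6b2 (2.37 times), Ndufaf1 (1.69 times) and Ndufa5 (1.55 times). These counts are not given here for all genes tested or for other bright genes. Whether the members varied less than other genes therefore cannot be read from them. The probe sets chosen for the 83 genes, 1 per gene, held 1.42% ± 0.0131 (SD, n = 3) of the summed signal on B6 arrays, 1.44% ± 0.0211 on Ts1Cje arrays, 1.38% ± 0.0118 on B6 Trib1 arrays and 1.38% ± 0.00986 on Ts1Cje Trib1 arrays. In bulk RNA, fewer cells of a type and less RNA per cell cannot be told apart, and this holds for every value below.

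**Figure D1:**
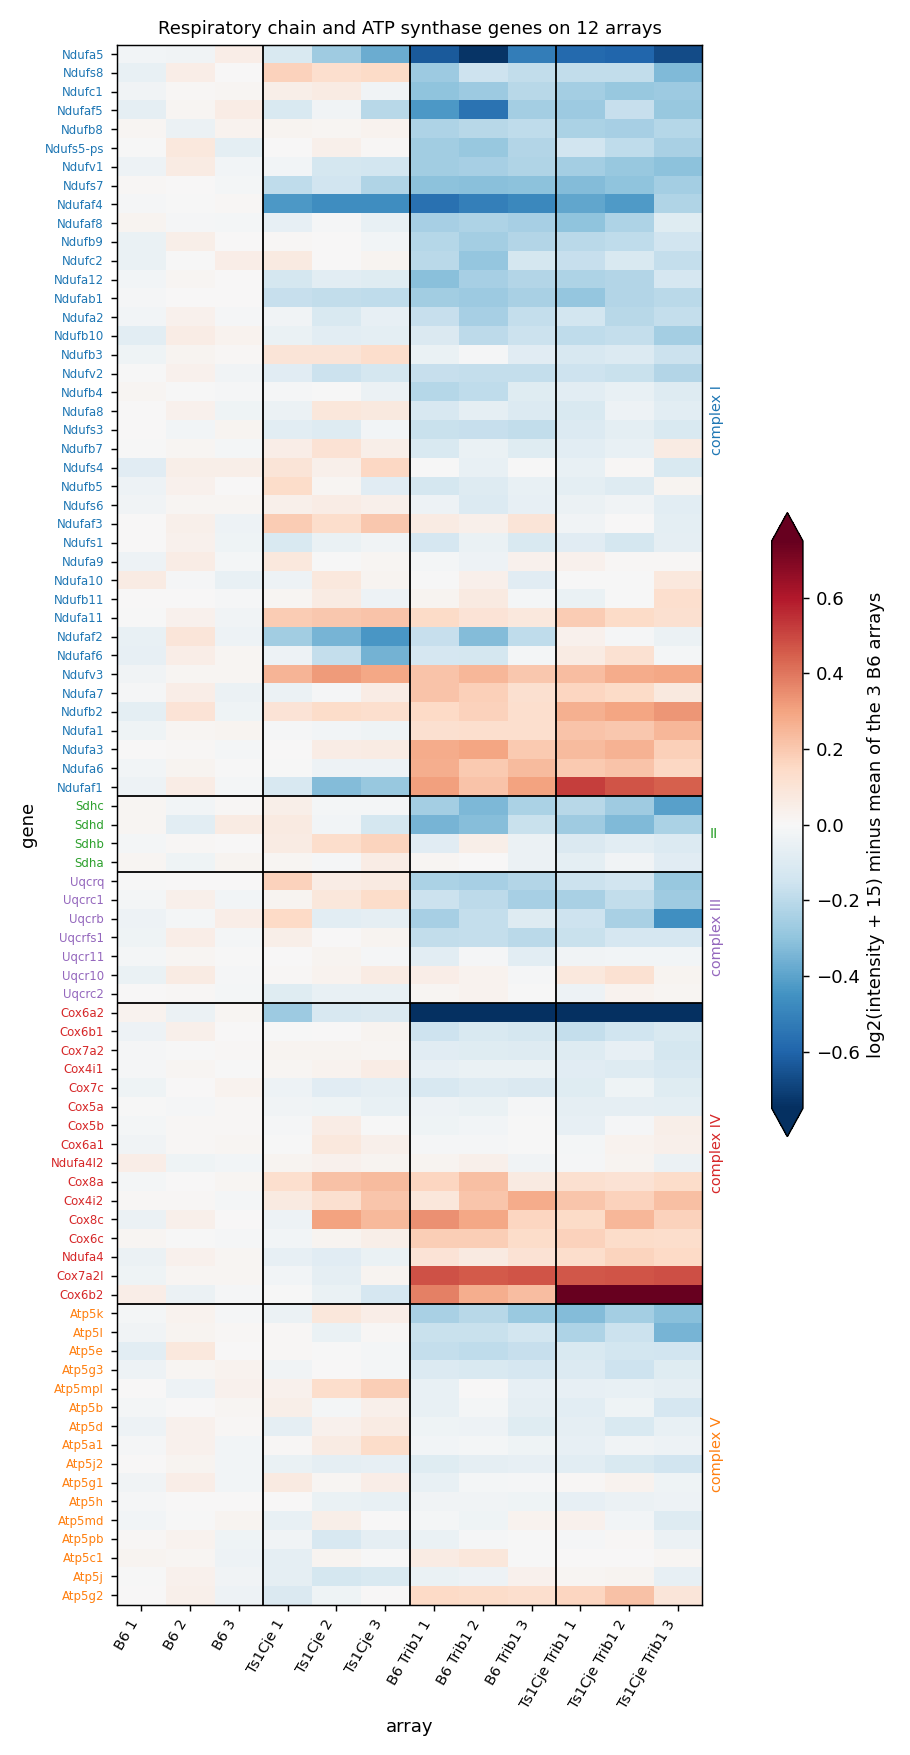
Heat map of 83 genes (rows, by complex, ordered by their mean difference between lines and cells) on 12 arrays (columns). Colour is log2(intensity + 15) minus the mean of the 3 B6 arrays, limited to 0.75 either way; Cox6a2 is dark blue on all 6 line arrays, Cox6b2 dark red on the 3 Ts1Cje Trib1 arrays, and Ndufaf4 blue on all arrays outside B6.

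The lines were compared with the cells of their own background to ask how the genes differed between leukaemic lines with Trib1 and hematopoietic cells. More of the genes fell than rose. In B6 Trib1 against B6, 16 of 83 rose (background 34.1% of all genes tested) and 34 fell (background 31.1%; either way 65.2%), with limma and an adjusted p under 0.05 after Benjamini-Hochberg adjustment over 12560 genes. In Ts1Cje Trib1 against Ts1Cje, 14 rose (background 34.1%) and 35 fell (background 26.8%; either way 60.8%). By the arrays alone, without a test, all 3 B6 Trib1 arrays lay above all 3 B6 arrays for 17 members (background 38.6%) and below them for 43 (background 34%). For Ts1Cje Trib1 and Ts1Cje the counts were 16 above (background 35.7%) and 41 below (background 28.5%). As shares of the 83, 19.3% rose and 41.0% fell in the B6 lines and 16.9% rose and 42.2% fell in the Ts1Cje lines. The median log2 difference of the 83 was -0.06 in the B6 lines, where that of all genes was 0.03, and -0.07 in the Ts1Cje lines, where that of all genes was 0.02.

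These 2 comparisons share no array. Of the 34 genes that fell in the B6 lines, 24 (70.6%) also fell in the Ts1Cje lines, which was 68.6% of the 35 that fell there. Of the 16 that rose in the B6 lines, 11 (68.8%) also rose in the Ts1Cje lines, which was 78.6% of the 14. The same overlap over all genes tested is not given here. Whether these shares are particular to the members therefore cannot be read from them. The 24 common falls were 12 complex I genes, 2 of complex II, 3 of complex III, 3 of complex IV and 4 of complex V. The 11 common rises were 6 complex I genes, 4 of complex IV and 1 of complex V. Ndufaf2 alone passed in opposite directions. Most of the differences were small, and in the B6 lines the balance of directions depended on the scaling. When arrays were centred on the median of the probe sets kept, the median of all genes in the B6 lines moved up by 0.104. The median of the members became 0.05, and 22 members rose and 19 fell. In the Ts1Cje lines the same centring gave 14 higher and 27 lower. The median of the members minus that of all genes, which no centring can change, was -0.08 in the B6 lines and -0.09 in the Ts1Cje lines. Across all alternatives it lay between -0.102 and -0.0426 in the B6 lines and between -0.121 and -0.0675 in the Ts1Cje lines.

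Markers of other blood cells moved with these comparisons. The summed mast cell and basophil markers (Cpa3, Mcpt8, Fcer1a, Ms4a2, Gata2 and Cma1) ran from 2503 to 2552 on B6 arrays, 4217 to 4466 on Ts1Cje arrays, 18565 to 18905 on B6 Trib1 arrays and 21467 to 22249 on Ts1Cje Trib1 arrays, and all 6 rose in both lines. The 6 measured B cell markers summed to between 4192 and 4393 on B6 arrays, 1518 and 1692 on Ts1Cje arrays, and 157 and 185 on line arrays, and 5 of them fell in both lines. The 7 monocyte and macrophage markers summed to between 5235 and 5373 on B6 arrays, 8586 and 8730 on Ts1Cje arrays, 2452 and 2496 on B6 Trib1 arrays and 945 and 1047 on Ts1Cje Trib1 arrays. The 6 megakaryocyte markers summed to between 5806 and 5958, 4617 and 4819, 9671 and 9918, and 8417 and 8668 on the arrays of the same groups in that order. No marker was listed at 0. The part of these cell types in the differences of the respiratory genes was not tested.

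**Figure D2:**
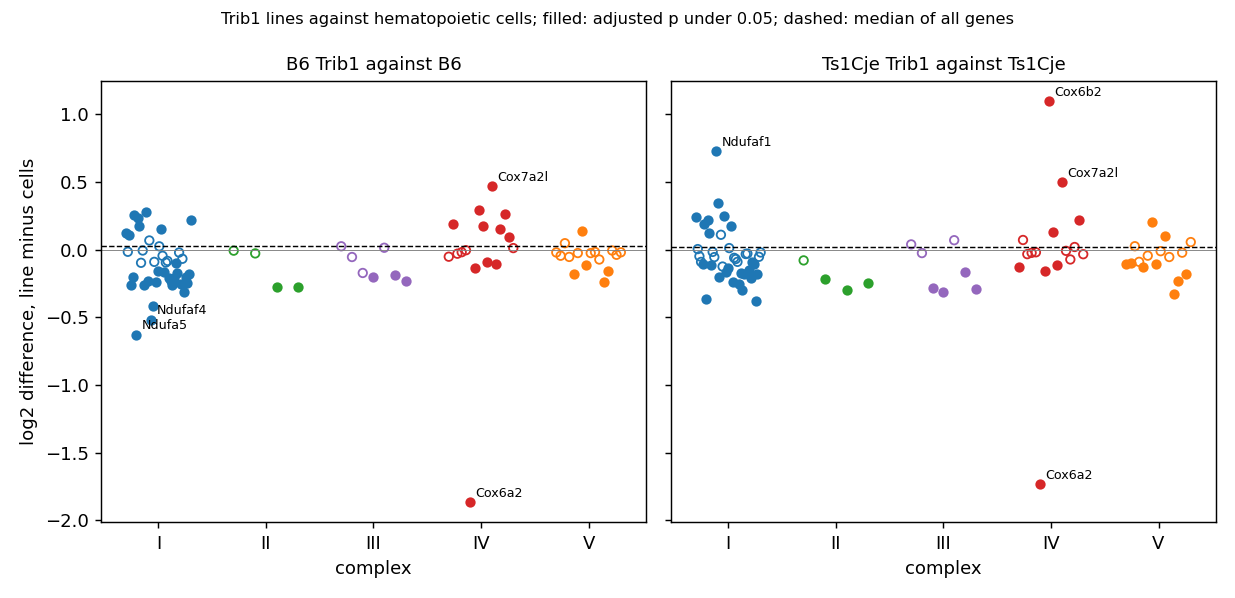
Log2 difference of each of the 83 genes between Trib1 lines and cells, by complex, for the B6 and the Ts1Cje background; filled points passed at an adjusted p under 0.05 and the dashed line is the median of all genes. Cox6a2 lies at -1.87 and -1.73, and Cox7a2l at 0.47 and 0.50.

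Complex I held the largest number of falls. In the B6 lines 21 of its 40 genes fell and 8 rose (31.1% and 34.1% of all genes tested). In the Ts1Cje lines 17 fell and 8 rose (26.8% and 34.1%). All 6 core subunits, which carry the flavin and iron-sulfur clusters or frame the ubiquinone site, fell in the B6 lines; with centring over the probe sets kept, the difference of Ndufs1 turned positive, and Ndufs7 and Ndufv1 alone passed under every scaling. In the Ts1Cje lines 3 of the 6 passed, all lower: Ndufs7, Ndufs8 and Ndufv1. Of the 26 accessory subunits, 10 fell and 7 rose in the B6 lines, and 11 fell and 5 rose in the Ts1Cje lines.

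Ndufa5, an accessory subunit of the arm that hands electrons to ubiquinone, had the deepest fall of complex I in the B6 lines. Its intensity was 1284, 1278 and 1349 in B6 cells, 1204, 1081 and 1005 in Ts1Cje cells, 836, 776 and 905 in B6 Trib1 lines and 866, 858 and 813 in Ts1Cje Trib1 lines. All 6 line arrays lay below all 6 arrays of cells, and the Ts1Cje arrays lay between the B6 arrays and the lines. The log2 difference was -0.63 (SE 0.0657, adjusted p = 2.11e-06, limma) in the B6 lines and -0.37 (adjusted p = 0.000259) in the Ts1Cje lines. A further probe set of Ndufa5 gave -0.30 and -0.24. Ndufs8, an iron-sulfur core subunit, had the deepest fall in the Ts1Cje lines at -0.38 (SE 0.0483, adjusted p = 1.05e-05, limma), from a mean intensity of 1896 ± 33.0 (SD, n = 3) to 1453 ± 82.8. In the B6 lines it fell by 0.21 on the log2 scale, a call lost with centring over the probe sets kept and with the mean of its probe sets. Ndufc1, an accessory membrane subunit, fell by 0.26 and 0.30 on the log2 scale. Against this trend, Ndufa1, Ndufa3, Ndufa6, Ndufa7 and Ndufb2, all accessory subunits, rose in both lines. Ndufa3 had a mean intensity of 2239 ± 17.0 in B6 cells, 2303 ± 49.7 in Ts1Cje cells, 2681 ± 101 in B6 Trib1 lines and 2622 ± 73.3 in Ts1Cje Trib1 lines (SD, n = 3). Its log2 differences were 0.26 and 0.19, with no overlap between lines and cells.

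In complex II, the membrane anchors Sdhc and Sdhd fell in both lines, while the flavoprotein Sdha did not pass in either. Sdhc intensity was 1239, 1211 and 1236 in B6 cells, 1268, 1216 and 1213 in Ts1Cje cells, 1028, 968 and 1041 in B6 Trib1 lines and 1061, 1018 and 922 in Ts1Cje Trib1 lines. Every line array lay below every array of cells, whereas the backgrounds overlapped. The log2 differences were -0.28 (SE 0.0498, adjusted p = 0.000321, limma) and -0.30 (adjusted p = 0.000134). Sdhd gave -0.28 and -0.25. Sdha gave -0.01 (adjusted p = 0.849) and -0.08 (adjusted p = 0.0685), with limma. The iron-sulfur subunit Sdhb had a log2 difference of -0.03 in the B6 lines (adjusted p = 0.556) and fell by 0.22 in the Ts1Cje lines (adjusted p = 0.000426, limma).

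In complex III, the core protein Uqcrc1, the Rieske iron-sulfur protein Uqcrfs1 and the small subunit Uqcrq fell in both lines, and Uqcrb, a small subunit near the ubiquinone site, passed only in the comparison of Ts1Cje lines with Ts1Cje cells. Uqcrc1 intensity was 1844, 1915 and 1842 in B6 cells, 1893, 1978 and 2052 in Ts1Cje cells, 1666, 1626 and 1566 in B6 Trib1 lines and 1575, 1643 and 1546 in Ts1Cje Trib1 lines. The line arrays lay below those of the cells without overlap. The log2 differences were -0.20 (SE 0.0420, adjusted p = 0.000911, limma), a call lost with centring over the probe sets kept, and -0.31 (adjusted p = 1.93e-05). Uqcrq intensity was 1699, 1703 and 1704 in B6 cells, 1924, 1772 and 1785 in Ts1Cje cells, 1444, 1433 and 1460.4 in B6 Trib1 lines and 1524, 1542 and 1397 in Ts1Cje Trib1 lines, again with no overlap of lines and cells. It fell by 0.23 and 0.29 on the log2 scale at its bright probe set, which is marked as able to read related transcripts; without such probe sets only dim ones were left, and the difference was 0.18 in the B6 lines and -0.04 in the Ts1Cje lines (adjusted p = 0.58, limma). The mean of its probe sets gave -0.004 in the B6 lines (adjusted p = 0.915, limma). Uqcr10 had log2 differences of 0.02 and 0.04 (adjusted p above the threshold) at the probe set used, while a dimmer probe set gave -0.50 and -0.59.

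Complex IV was split. In the B6 lines 7 of 16 tested genes rose and 4 fell (34.1% and 31.1% of all genes tested). In the Ts1Cje lines 4 rose and 4 fell (34.1% and 26.8%). Most of the widely expressed subunits moved little: Cox6a1 had a mean intensity of 5102 ± 74.1 (SD, n = 3) in B6 cells, 5233 ± 151 in Ts1Cje cells, 5083 ± 9.18 in B6 Trib1 lines and 5159 ± 101 in Ts1Cje Trib1 lines. Cox6c rose in both lines, by 0.17 and 0.13, and Cox6b1 fell by 0.13 and 0.16, all on the log2 scale; with centring over the probe sets kept, the Cox6b1 difference in the B6 lines was -0.03 (adjusted p = 0.58, limma). Cox4i1 had a difference of -0.05 in the B6 lines that did not pass and fell by 0.13 in the Ts1Cje lines, a call lost under another scaling. Cox7a2 fell by 0.09 and 0.11, and its difference in the B6 lines turned to 0.014 with centring over the probe sets kept. The call in the B6 lines was lost under 8 of 25 alternatives, among them leaving out B6 Trib1 replicate 1, 2 or 3 (adjusted p = 0.0541, 0.0579 and 0.0565, limma) or B6 replicate 2 or 3 (0.0589 and 0.0740), and that in the Ts1Cje lines with centring over the probe sets kept. The large changes lay in isoforms that are best known from other tissues and in Cox7a2l.

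Cox6a2, the isoform of heart and skeletal muscle, had the deepest fall of all 83 genes. Its intensity was 166, 157 and 164 in B6 cells, 132, 148 and 149 in Ts1Cje cells, 33.7, 32.2 and 35.2 in B6 Trib1 lines and 28.1, 32.0 and 37.8 in Ts1Cje Trib1 lines. The highest line array lay far below the lowest array of cells. The line values were dim, near the array medians of 30.5 to 32.0. The log2 difference was -1.87 (SE 0.0664, adjusted p = 3.01e-11, limma) in the B6 lines and -1.73 (adjusted p = 3.38e-11) in the Ts1Cje lines, on a log2(intensity + 15) scale that understates changes of dim genes. Between the backgrounds without Trib1 its difference of -0.17 passed (adjusted p = 0.048, limma), but was lost under 17 of 25 alternatives.

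Cox6b2, the testis isoform of the subunit that faces cytochrome c, had the largest rise. Its intensity was 84.9, 78.6 and 80.9 in B6 cells, 81.4, 78.2 and 73.2 in Ts1Cje cells, 110.2, 101 and 98.2 in B6 Trib1 lines and 194, 199 and 158 in Ts1Cje Trib1 lines. The Ts1Cje Trib1 arrays stood above all others, the B6 Trib1 arrays above the cells, and the backgrounds overlapped without Trib1. The log2 difference was 0.29 (SE 0.0716, adjusted p = 0.00312, limma) in the B6 lines and 1.10 (adjusted p = 1.11e-08) in the Ts1Cje lines. Between the lines, Ts1Cje Trib1 exceeded B6 Trib1 by 0.74 (adjusted p = 5.52e-06, limma). The genotype difference with Trib1 exceeded that without it by 0.80 (SE 0.101, adjusted p = 3.08e-05, limma, interaction term).

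Cox7a2l, a relative of the Cox7a subunits that joins complexes III and IV into supercomplexes, rose alike in both lines. Its intensity was 1072, 1108 and 1108 in B6 cells, 1081, 1045 and 1112 in Ts1Cje cells, 1528, 1512 and 1525 in B6 Trib1 lines and 1519.7, 1524 and 1539 in Ts1Cje Trib1 lines. The 6 line arrays lay above the 6 arrays of cells without overlap. The log2 differences were 0.47 (SE 0.0346, adjusted p = 5.85e-08, limma) and 0.50 (adjusted p = 2.2e-08), and its other kept probe sets gave 0.42 and 0.46 in the B6 lines and 0.39 and 0.49 in the Ts1Cje lines. The genotype difference was -0.02 without Trib1 (adjusted p = 0.597) and 0.00 with it (adjusted p = 0.949), with limma.

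The remaining isoforms gave low signal or small differences. Cox8c, another testis isoform, had mean intensities of 119 ± 3.66, 136 ± 18.6, 146 ± 10.2 and 137 ± 5.66 (SD, n = 3) in B6, Ts1Cje, B6 Trib1 and Ts1Cje Trib1, and rose in the B6 lines by 0.26 (adjusted p = 0.0086, limma). Cox4i2, known from lung and low oxygen, passed in the same comparison with a difference of 0.19, but at group means of 18.9 to 24.1 its signal lay at the background. Ndufa4l2, a gene induced by low oxygen, stayed between 21.1 and 23.5 on all 12 arrays. Its widely expressed relative Ndufa4 rose by 0.09 in the B6 lines, a call lost under 6 alternatives, and by 0.22 in the Ts1Cje lines (adjusted p = 7.93e-05, limma).

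**Figure D3:**
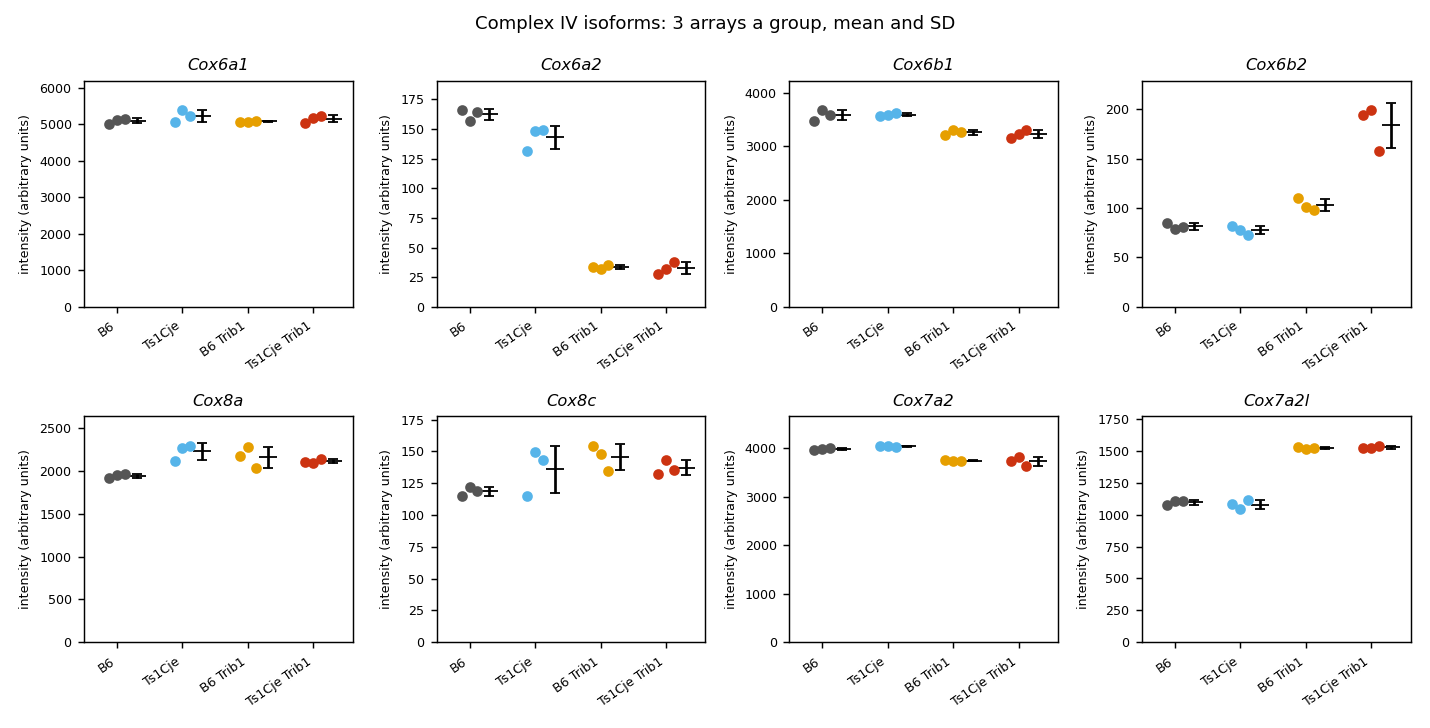
Intensity (linear scale from 0, arbitrary units) of complex IV isoforms and Cox7a2l on the 12 arrays; points are arrays and bars the mean and SD of 3. The Cox6a2 points of the lines lie between 28.1 and 37.8 against 132 to 166 in the cells, and Cox6b2 is highest in Ts1Cje Trib1 at 158 to 199.

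In complex V, 4 of 16 genes fell and 1 rose in the B6 lines (31.1% and 34.1% of all genes tested). In the Ts1Cje lines 7 fell and 2 rose (26.8% and 34.1%). Subunit c, which forms the rotating ring, is encoded by several genes with the same mature protein, and these moved apart. Atp5g2 intensity was 1789, 1831 and 1739 in B6 cells, 1656, 1748 and 1791 in Ts1Cje cells, 1983, 1969.6 and 1947 in B6 Trib1 lines and 2003, 2085 and 1903 in Ts1Cje Trib1 lines, so that all line arrays lay above all arrays of cells. Its log2 differences were 0.14 (SE 0.0431, adjusted p = 0.0136, limma), a call lost without B6 replicate 3, and 0.20 (adjusted p = 0.000978). Atp5g3 fell by 0.11 and 0.10 on the log2 scale, both calls lost with centring over the probe sets kept, and Atp5g1 had differences of -0.03 and -0.05 that did not pass.

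Atp5k, the small membrane subunit e, had the deepest fall of complex V. Its intensity was 2685, 2759 and 2691 in B6 cells, 2629.6, 2881 and 2804 in Ts1Cje cells, 2293, 2344 and 2232 in B6 Trib1 lines and 2162, 2273 and 2175 in Ts1Cje Trib1 lines. Lines and cells did not overlap. The log2 differences were -0.24 (SE 0.0414, adjusted p = 0.000199, limma) and -0.33 (adjusted p = 1.00e-05). Atp5l, the neighbouring subunit g, fell by 0.16 and 0.24. The catalytic F1 subunits Atp5a1 and Atp5b fell by 0.11 and 0.10 in the Ts1Cje lines, both calls lost under another scaling, and had differences of -0.02 and -0.05 in the B6 lines that did not pass.

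The genotype was compared first without Trib1, to ask how trisomic and wild type hematopoietic cells differed. In Ts1Cje against B6, 10 of 83 rose (background 23.3%) and 10 fell (background 29.3%; either way 52.6%), with limma. All 3 Ts1Cje arrays lay above all 3 B6 arrays for 14 members (background 28%) and below them for 16 (background 32.3%). Among bright genes, with a mean intensity of at least 500, 8 of 73 members rose and 6 fell, against 815 higher and 1011 lower of all 2965 such genes. The median difference of the members was 0.004 on the log2 scale, and that of all genes 0.009. Of the calls, 6 rises and 4 falls passed under every scaling. The count of rises was 4 without B6 replicate 1, 6 without Ts1Cje replicate 2 and 5 without Ts1Cje replicate 3, and 20 rose and 4 fell with centring over the probe sets kept. None of the members lies in the trisomic segment by the order of genes in the reference; Atp5j, Ndufb4 and Ndufs5-ps are on chromosome 16 but outside it.

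Ndufv3, an accessory subunit of the NADH-binding arm whose human gene lies on the chromosome that is trisomic in Down syndrome, but whose mouse gene lies on chromosome 17, had the largest rise. Its intensity was 1426, 1468 and 1466 in B6 cells, 1740.2, 1815 and 1777 in Ts1Cje cells, 1686, 1730.3 and 1674 in B6 Trib1 lines and 1706, 1764 and 1782 in Ts1Cje Trib1 lines. The B6 arrays lay below the 9 others. Ts1Cje exceeded B6 by 0.29 (SE 0.0350, adjusted p = 1.86e-05, limma), and the lines differed by 0.04 (adjusted p = 0.427). Ndufa11, Ndufb3, Cox8a, Sdhb and the assembly factor Ndufaf3 also rose under every scaling, by 0.11 to 0.20 on the log2 scale. The rise of Sdhb, from 1445, 1465 and 1461 in B6 to 1519.5, 1600.2 and 1639 in Ts1Cje, was 0.12 (adjusted p = 0.0272, limma). The call was lost when any of 5 arrays was left out: B6 replicates 1, 2 and 3 (adjusted p = 0.0734, 0.0555 and 0.0607, limma) or Ts1Cje replicates 2 and 3 (adjusted p = 0.0723 and 0.105). The falls that passed under every scaling were Ndufa5, at -0.25 (adjusted p = 0.00649, limma), and the assembly factors Ndufaf1, Ndufaf2 and Ndufaf4. In complex V, the membrane subunit Atp5mpl rose by 0.12 (adjusted p = 0.0328) and the stalk subunit Atp5j fell by 0.11 (adjusted p = 0.0354, limma), calls lost under 6 and 7 of 25 alternatives.

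With Trib1, 5 of 83 rose in Ts1Cje Trib1 against B6 Trib1 (background 11.9%) and 0 fell (background 9.63%), with limma. At an unadjusted p under 0.05 (limma) the counts were 9 and 2. The share of all genes at that threshold is not given here, and at the stricter adjusted threshold it was 21.5% either way. The arrays of the groups did not overlap for 12 members higher (background 19.6%) and 5 lower (background 16.9%). The 5 were Cox6b2, Ndufaf1, Ndufaf2, Ndufaf4 and Ndufb2, of which Cox6b2, Ndufaf1 and Ndufaf2 passed under every scaling. The count was 3 without B6 Trib1 replicate 1, 1 without B6 Trib1 replicate 2, 3 without Ts1Cje Trib1 replicate 3 and 3 with centring over the probe sets kept. Ndufb2, an accessory subunit, was the 1 member that rose in both genotype comparisons, by 0.12 (adjusted p = 0.0355) and 0.15 (adjusted p = 0.032, limma), and passed neither under every scaling.

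**Figure D4:**
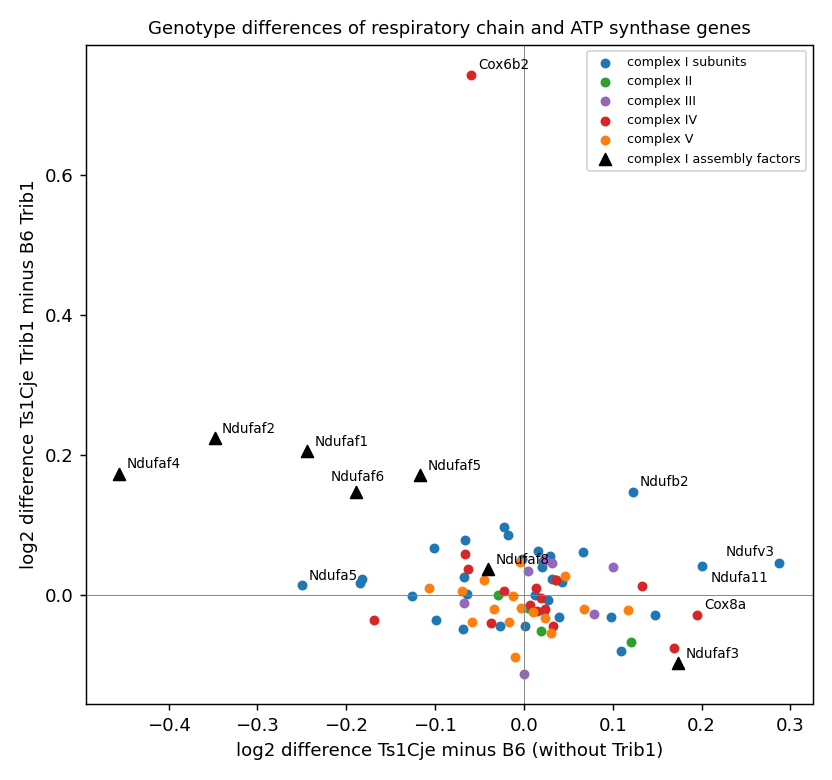
Log2 difference between Ts1Cje and B6 without Trib1 (horizontal) and with Trib1 (vertical) for 83 genes, coloured by complex; triangles are complex I assembly factors. Ndufaf1, Ndufaf2 and Ndufaf4 lie at the upper left (-0.24 to -0.46 and 0.17 to 0.22), Cox6b2 at the top, and most other genes near 0.

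Among the 7 complex I assembly factors, 4 fell and 1 rose without Trib1 (29.3% and 23.3% of all genes tested). With Trib1, 3 rose (11.9%). The interaction term subtracts the genotype difference between cells from that between lines. It was positive and past the threshold for 5 of the 7 and negative for 1, where all genes gave 28.4% positive and 20.2% negative (48.6% either way). Among the 32 subunits of complex I, core and accessory, 6 were positive and 4 negative. Whether assembly factors and subunits differ was not tested.

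Ndufaf4, which with Ndufaf3 builds the ubiquinone-binding module, had the largest shift. Its intensity was 964, 966 and 975 in B6 cells, 715, 696 and 696 in Ts1Cje cells, 652, 673 and 689 in B6 Trib1 lines and 734, 719 and 827 in Ts1Cje Trib1 lines. The B6 arrays stood above all others, and the Ts1Cje Trib1 arrays above those of Ts1Cje and B6 Trib1. The difference between the backgrounds was -0.46 without Trib1 (SE 0.0480, adjusted p = 5.27e-06, limma) and 0.17 with it (adjusted p = 0.0199). The latter missed the threshold without B6 Trib1 replicate 1 (adjusted p = 0.0853), B6 Trib1 replicate 2 (0.0517) or Ts1Cje Trib1 replicate 3 (0.0577), and under 2 other alternatives. The interaction was 0.63 (SE 0.0679, adjusted p = 7.96e-06, limma). A second probe set, read on the same arrays, gave -0.61 and 0.27 for the genotype differences. In the B6 lines Ndufaf4 fell by 0.52 against B6, a comparison that shares the B6 arrays with the first.

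Ndufaf2, which docks on the nearly complete complex, also had genotype differences of opposite sign. Its intensity was 180.5, 201 and 183 in B6 cells, 154, 144 and 135 in Ts1Cje cells, 165, 147 and 163 in B6 Trib1 lines and 193, 187 and 182 in Ts1Cje Trib1 lines. B6 and Ts1Cje did not overlap, nor did B6 Trib1 and Ts1Cje Trib1, in the opposite order. The genotype differences were -0.35 (SE 0.0566, adjusted p = 0.000209, limma) and 0.22 (adjusted p = 0.0119), the latter lost without B6 Trib1 replicate 2 (0.18, adjusted p = 0.0587), and the interaction was 0.57 (adjusted p = 7.51e-05). Ndufaf2 fell by 0.23 in the B6 lines and rose by 0.34 in the Ts1Cje lines.

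Ndufaf1, part of the complex that assembles the membrane arm, was brightest in the lines. Its intensity was 293, 315 and 299 in B6 cells, 277, 238 and 245 in Ts1Cje cells, 378, 352 and 377 in B6 Trib1 lines and 439, 426 and 418 in Ts1Cje Trib1 lines. No group overlapped another: Ts1Cje was lowest and Ts1Cje Trib1 highest. The genotype differences were -0.24 (SE 0.0532, adjusted p = 0.0019, limma) and 0.20 (adjusted p = 0.014), the latter lost without B6 Trib1 replicate 2 (adjusted p = 0.0648) or Ts1Cje Trib1 replicate 1 (0.0573). It rose by 0.28 in the B6 lines and 0.72 in the Ts1Cje lines (adjusted p = 0.000559 and 3.82e-08, limma), and the interaction was 0.45 (adjusted p = 0.00032).

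Ndufaf3 went the other way. Its intensity was 286, 294 and 278 in B6 cells, 328, 315 and 331 in Ts1Cje cells, 299.5, 294 and 307 in B6 Trib1 lines and 280.5, 287 and 271 in Ts1Cje Trib1 lines. Ts1Cje lay above the 3 other groups. The genotype difference was 0.17 without Trib1 (SE 0.0383, adjusted p = 0.00203, limma) and -0.10 with it (adjusted p = 0.0904), and the interaction was -0.27 (adjusted p = 0.00117). Ndufaf6, an early assembly factor, had genotype differences of -0.19 (adjusted p = 0.0365) and 0.15 (adjusted p = 0.165, limma), and Ndufaf5, an enzyme that modifies a core subunit, of -0.12 and 0.17, neither of which passed. Ndufaf8, a partner of Ndufaf5, had differences of -0.04 and 0.04 that did not pass, and fell in both lines, by 0.24 and 0.17.

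**Figure D5:**
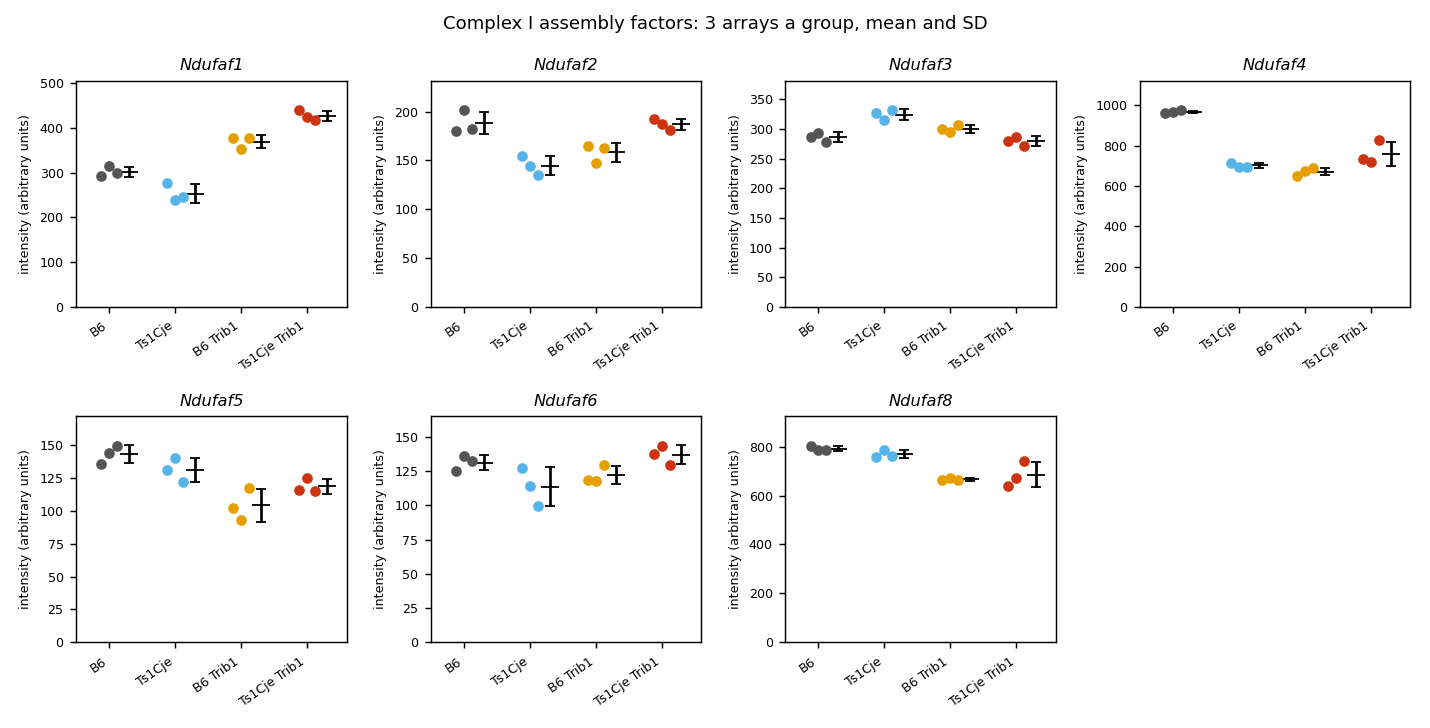
Intensity (linear scale from 0, arbitrary units) of the 7 complex I assembly factors on the 12 arrays; points are arrays and bars the mean and SD of 3. For Ndufaf4 the B6 points lie at 964 to 975 and the Ts1Cje points at 696 to 715, while for Ndufaf1 the Ts1Cje Trib1 points are the highest at 418 to 439.

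Over all members, assembly factors included, the interaction passed for 13 of 83 genes with a positive sign and 7 with a negative sign. These shares, 15.7% and 8.43%, were below the 28.4% and 20.2% of all genes tested. Under every scaling 5 of each passed: Cox6b2, Ndufaf1, Ndufaf2, Ndufaf4 and Ndufaf6, and Cox8a, Ndufaf3, Ndufb3, Ndufv3 and Sdhb. The positive count was 7 without B6 replicate 3, 8 without B6 Trib1 replicate 1 and 8 without Ts1Cje Trib1 replicate 2. With centring over the probe sets kept, 5 were positive and 15 negative, and among all genes the split turned from 3568 positive and 2541 negative to 2417 and 3700. Cox8a, a widely expressed complex IV subunit, showed the negative pattern: its mean intensity was 1943 ± 20.7 in B6 cells, 2227 ± 93.6 in Ts1Cje cells, 2161 ± 122 in B6 Trib1 lines and 2115 ± 25.5 in Ts1Cje Trib1 lines (SD, n = 3). Its genotype difference was 0.20 (adjusted p = 0.00282) without Trib1 and -0.03 (adjusted p = 0.719) with it, with limma.

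Neutrophil markers moved with the genotype in both settings. The 7 markers summed to between 25527 and 25662 on B6 arrays and 37715 and 37968 on Ts1Cje arrays, and all 7 rose. In the lines the order turned, with 23190 to 23623 in B6 Trib1 and 14388 to 15096 in Ts1Cje Trib1, and all 7 fell. Their part in the genotype differences of the assembly factors was not tested.

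Genes of the pathway outside the symbol rule were counted from lists. The lists, here and below, were counted with the values as deposited and not under the alternatives. With centring over the probe sets kept, the median of all genes moved by 0.079 in Ts1Cje against B6. In the interaction it moved by -0.0914, so the counts of the lists may depend on the scaling. Among 20 genes for the assembly of complexes I, II, III and V, 13 fell and 2 rose in Ts1Cje against B6 (29.3% and 23.3% of all genes tested), 4 rose in Ts1Cje Trib1 against B6 Trib1 (11.9%), and 11 interactions were positive and 1 negative (28.4% and 20.2%). Sdhaf1, which delivers iron-sulfur clusters to Sdhb, had mean intensities of 298 in B6 cells, 245 in Ts1Cje cells, 185 in B6 Trib1 lines and 211 in Ts1Cje Trib1 lines, with an interaction of 0.44. Sdhaf4, which helps to mature Sdha, had means of 333, 295, 333 and 389.8 in that order, with an interaction of 0.39. Tmem186, a complex I assembly protein, fell by 0.30 without Trib1 and had a difference of 0.09 with it that did not pass. Among 14 genes for complex IV assembly and copper delivery, 4 rose and 2 fell without Trib1 (23.3% and 29.3% of all genes tested), and 3 rose with it (11.9%). Cox18, which inserts a membrane segment of a mitochondrially encoded subunit, fell by 0.12 without Trib1 and rose by 0.27 with it. Surf1, an assembly factor of complex IV, rose by 0.20 without Trib1. In the B6 lines 6 of the 14 genes rose and 4 fell (34.1% and 31.1% of all genes tested). In the Ts1Cje lines 8 rose and 1 fell (34.1% and 26.8%). The latter was Cox10, which makes heme O for complex IV and fell in both lines, by 0.58 and 0.26. Of the 20 assembly genes of complexes I, II, III and V, 3 rose and 5 fell in the B6 lines. In the Ts1Cje lines 11 of these rose and 3 fell.

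Among 16 regulators of mitochondrial DNA and biogenesis, 11 fell in Ts1Cje against B6 (29.3% of all genes tested), with a median of -0.18 where all genes had 0.009. With Trib1, 2 rose and 1 fell (11.9% and 9.63%). Tfam, which packages and transcribes mitochondrial DNA, had mean intensities of 678, 482, 693 and 709.9 in B6, Ts1Cje, B6 Trib1 and Ts1Cje Trib1. Its difference was -0.48 without Trib1 and 0.04 with it, with an interaction of 0.52. In the B6 lines 2 of the 16 rose and 6 fell (34.1% and 31.1% of all genes tested). In the Ts1Cje lines 8 rose and 3 fell (34.1% and 26.8%), and the rises included Tfam by 0.55 and Tfb2m by 0.54. Ppargc1b, a coactivator of the PGC-1 family, fell in both lines, by 1.10 and 0.89, and Polg, the mitochondrial DNA polymerase, by 0.78 and 1.06. Nrf1, named for the letters marked in the promoters after its values were seen, had differences between -0.12 and -0.02 in the pairwise comparisons, none of which passed. Cycs, which carries electrons from complex III to complex IV, and Cyc1, the cytochrome c1 subunit of complex III, fell in both lines, Cycs by 0.26 and 0.13 and Cyc1 by 0.39 and 0.41.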

How the data were processed

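Total RNA (100 ng) from 12 mouse cell samples was hybridised to arrays with perfect-match probes. The deposited values are the intensity of 45141 probe sets on a linear scale, credited to MAS5 in the submitters' processing notes; the scaling target is not given in the sources used here, and the number of arrays limits the precision. Probe sets were kept where intensity exceeded the array's 40th percentile on at least 3 of 12 arrays, values were taken as log2(intensity + 15), and each gene was represented by its kept probe set with the highest mean of log2 values. This gave 12560 genes. All 12 arrays were fitted with 1 mean per group in limma 3.58.1 (R 4.3.3), two-sided, with Benjamini-Hochberg adjustment over all genes and a threshold of 0.05, after a check on simulated data.

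Any member could be named; given in full were the largest rise and fall per complex and comparison, the largest interactions, isoform groups, subunit c genes and complex II, and from each pathway list the gene with the smallest adjusted p per comparison. The members and lists were chosen with earlier results of these data known. Alternatives covered scaling, offset, filter, probe set choice, variance moderation, samples fitted, the replicate number as a block, and each array left out. Symbols are those of the platform annotation; GRCm38.p6 served for chromosomes and promoters.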

Additional observations from a re-analysis of the deposited data

Results flagged for a closer look

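The genotype difference differed with Trib1, by the interaction term of limma with Benjamini-Hochberg adjustment, for 13 members with a positive sign and 7 with a negative sign. These were 15.7% and 8.43% of the members tested, below the 28.4% and 20.2% of all genes tested. The positive values on the log2 scale were 0.80 for Cox6b2, 0.63 for Ndufaf4, 0.57 for Ndufaf2, 0.45 for Ndufaf1, 0.34 for Ndufaf6, 0.29 for Ndufaf5, 0.26 for Ndufa5, 0.20 for Ndufab1, 0.20 for Ndufs7, 0.17 for Ndufa12, 0.14 for Ndufs3, 0.12 for Ndufa4 and 0.12 for Ndufa1. The negative values were -0.27 for Ndufaf3, -0.24 for Ndufv3, -0.22 for Cox8a, -0.19 for Ndufb3, -0.19 for Sdhb, -0.18 for Ndufs8 and -0.16 for Ndufa11. Under every scaling 5 of the 13 positive and 5 of the 7 negative calls passed, and Ndufab1 and Ndufs7, described next, were not among them. The calls of Ndufa4, Ndufs8 and Ndufa5 were lost under 17, 14 and 9 of 25 alternatives. Those of Ndufab1 and Ndufs7 were not followed singly over the 25 alternatives.

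Ndufab1, the mitochondrial acyl carrier protein that is also a complex I subunit, had intensities of 2227, 2246 and 2238 in B6 cells, 1986, 1968 and 1955 in Ts1Cje cells, 1868, 1846 and 1884 in B6 Trib1 lines and 1825, 1917 and 1943 in Ts1Cje Trib1 lines. The B6 arrays stood above all others. Ndufs7, the core subunit next to the ubiquinone site, had means of 964 ± 7.58, 847 ± 25.5, 775 ± 1.26 and 784 ± 20.3 (SD, n = 3) in the same order.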

How the results depend on the processing

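Of 72 named results, 25 alternatives kept direction and call in 1654 instances, lost the call in 140 and turned the sign in 2: Uqcrq in the B6 lines (0.18 without probe sets marked _x_ or _s_) and Cox7a2 in the B6 lines (0.014 with centring over the probe sets kept, chosen after seeing the data). That centring gave 20 higher and 4 lower in Ts1Cje against B6, 3 higher in Ts1Cje Trib1 against B6 Trib1, 19 lower in B6 Trib1 against B6, and 5 positive and 15 negative interactions; for all genes it gave 4719 higher and 2538 lower (2925 and 3677 as deposited) in Ts1Cje against B6 and 6356 and 2751 (4283 and 3907) in B6 Trib1 against B6. Quantile normalization gave 1 lower in Ts1Cje Trib1 against B6 Trib1 instead of 0. With each array left out in turn, rises and falls ran from 4 to 12 and 7 to 11 in Ts1Cje against B6, from 1 to 6 and at 0 in Ts1Cje Trib1 against B6 Trib1, from 13 to 16 and 32 to 36 in the B6 lines, from 12 to 14 and 29 to 35 in the Ts1Cje lines, and from 7 to 13 and 5 to 8 for the interaction. Without Ts1Cje array 1 and B6 Trib1 array 3, whose upper quartiles stood apart (chosen after seeing the data), the counts were 11 and 10, 7 and 0, 15 and 33, 13 and 36, and 13 and 10 in the same order. The causes were not tested.

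Replicate numbers did not pair the arrays: deviations of same-numbered arrays correlated between -0.45 and 0.35, and 3 of 12 arrays were closest to their own number. With the number as a replicate block, 10 rose and 9 fell in Ts1Cje against B6, 5 and 0 in Ts1Cje Trib1 against B6 Trib1, 16 and 34 in the B6 lines and 13 and 34 in the Ts1Cje lines, and 11 interactions were positive and 6 negative. Of 39 members with several kept probe sets, all agreed in sign for 29, 22, 24 and 29 in Ts1Cje against B6, Ts1Cje Trib1 against B6 Trib1, B6 Trib1 against B6 and Ts1Cje Trib1 against Ts1Cje. Cox4i2 and Ndufa4l2 lay at the background, where differences cannot be read.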

Other observations

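The citric acid cycle and pyruvate dehydrogenase genes, which feed the chain, gave 3 higher and 5 lower of 14 in the B6 lines (34.1% and 31.1% of all genes tested) and 3 higher and 6 lower in the Ts1Cje lines (34.1% and 26.8%), by limma with adjusted p under 0.05. Ogdh, a subunit of 2-oxoglutarate dehydrogenase, had mean intensities of 548, 484, 273 and 256 in B6, Ts1Cje, B6 Trib1 and Ts1Cje Trib1 and fell by 0.97 and 0.89 on the log2 scale. Dlst, another subunit of that enzyme, fell by 0.18 in Ts1Cje Trib1 against B6 Trib1. Suclg2, a subunit of the GTP-forming succinyl-CoA ligase, had means of 786, 595, 772 and 834, with a genotype difference of -0.39 without Trib1 and an interaction of 0.50.

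Among 7 carriers and channels, 2 rose and 3 fell in the B6 lines (34.1% and 31.1% of all genes tested). In the Ts1Cje lines 1 rose and 2 fell (34.1% and 26.8%). Slc25a4, an ADP/ATP carrier known from muscle, fell by 0.23 and 0.19 in the lines, and the channel Vdac2 by 0.10 and 0.24. The carrier Slc25a5 rose by 0.10 and 0.08.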
